A study of Homo sapiens with 6 samples.

Results

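The copying of the genome in dividing cells was examined here through 10 genes that encode the replicative DNA polymerases, the sliding clamp and the ligase of the replication fork, namely POLA1, POLA2, PRIM1, PRIM2, POLD1, POLD3, POLE, POLE2, PCNA and LIG1. They were picked by symbol, and all 10 were found among the 35268 named genes of the expression table. Rh30 is an established line of fusion-positive rhabdomyosarcoma, a tumour of muscle-lineage cells driven here by the PAX3-FOXO1 fusion. The labels name no genetic change in either group, and both had 24 h of treatment, with 1 µM YK-4-279 in one group and the solvent DMSO in the other. YK-4-279, given as a racemic mixture, is a synthetic compound aimed at ETS-family proteins, the Ewing sarcoma fusion EWS-FLI1 among them. mRNA was sequenced from 3 libraries in each group.

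As background, replication starts when DNA polymerase alpha and its primase lay down a short RNA and DNA primer. Polymerase epsilon then extends the leading strand and polymerase delta the pieces of the lagging strand, both held to the template by the ring-shaped clamp PCNA, and DNA ligase 1 seals the pieces. Genes for these proteins are classic targets of E2F transcription factors, and their mRNA is most abundant as cells enter S phase. The comparison asked how the mRNA of this machinery stood in drug-treated cells. In bulk RNA, fewer cells in S phase and less RNA per cell cannot be told apart.

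The libraries held between 16724650 and 24677433 reads on named genes. DMSO replicate 1 stood apart, with a mean correlation of 0.989 with the other libraries, where no other library was under 0.992, and 6.05% of its reads on mitochondrial genes, where the others had 4.74% to 5.03%. Of 8 markers listed for Rh30, MYOD1 and MYOG, the myogenic factors, had DMSO means of 37118 and 13810 normalized counts, none of the 7 that were tested passed the threshold, and MYF5 was at 0 in DMSO. Of 7 markers of other cell types, PTPRC, CD3E, KRT5, ALB and SOX10 were too low to be tested, and PECAM1 and EPCAM had DMSO means of 20.8 and 55.8. The sources do not say that the 3 libraries of a group were separate cultures, so p-values measure the spread between these samples, which may be technical.

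Promoter windows of RefSeq (GRCh38.p14), running from 250 bases before to 50 after a start site, were matched for 9 of the 10 genes, all but POLD3, with 12 windows in all. The groups of POLA2 and PRIM2 overlapped, and of these genes only the window of POLA2 is shown. The 6 windows below are that window and those of POLA1, POLE, LIG1 and PCNA (2 windows), the 4 genes with a window that changed. They lie at chrX:24693668-24693967 on the plus strand (POLA1), chr12:132687293-132687592 on the minus strand (POLE), chr20:5126573-5126872 and chr20:5119909-5120208 on the minus strand (PCNA, upstream and second start), chr19:48170295-48170594 on the minus strand (LIG1) and chr11:65261712-65262011 on the plus strand (POLA2). Each is written in the direction of the gene, and capitals mark the E2F-type matches, of which the window of the second PCNA start has none.
POLA1: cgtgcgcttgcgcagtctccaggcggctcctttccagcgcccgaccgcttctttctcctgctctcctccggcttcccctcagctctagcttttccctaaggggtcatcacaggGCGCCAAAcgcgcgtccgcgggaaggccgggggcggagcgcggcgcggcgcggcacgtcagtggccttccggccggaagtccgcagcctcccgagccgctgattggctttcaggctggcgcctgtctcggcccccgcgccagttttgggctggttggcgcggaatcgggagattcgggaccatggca
POLE: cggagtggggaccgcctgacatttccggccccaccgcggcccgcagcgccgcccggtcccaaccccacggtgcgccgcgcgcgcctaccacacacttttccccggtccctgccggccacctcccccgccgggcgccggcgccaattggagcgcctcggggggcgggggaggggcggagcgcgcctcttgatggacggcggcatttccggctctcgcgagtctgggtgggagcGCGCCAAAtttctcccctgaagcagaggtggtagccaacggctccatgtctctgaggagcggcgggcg
PCNA: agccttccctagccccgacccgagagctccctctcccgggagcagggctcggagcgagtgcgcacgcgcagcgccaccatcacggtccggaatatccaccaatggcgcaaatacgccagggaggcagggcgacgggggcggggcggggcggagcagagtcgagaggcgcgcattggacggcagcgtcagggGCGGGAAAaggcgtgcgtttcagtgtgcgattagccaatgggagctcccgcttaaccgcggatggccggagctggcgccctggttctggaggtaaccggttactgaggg
PCNA, second start: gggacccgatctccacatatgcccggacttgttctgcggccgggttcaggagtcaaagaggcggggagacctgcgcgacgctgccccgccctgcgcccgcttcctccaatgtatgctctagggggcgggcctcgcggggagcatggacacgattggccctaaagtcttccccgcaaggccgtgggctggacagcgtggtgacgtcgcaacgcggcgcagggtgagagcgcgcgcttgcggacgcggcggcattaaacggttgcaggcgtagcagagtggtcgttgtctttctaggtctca
LIG1: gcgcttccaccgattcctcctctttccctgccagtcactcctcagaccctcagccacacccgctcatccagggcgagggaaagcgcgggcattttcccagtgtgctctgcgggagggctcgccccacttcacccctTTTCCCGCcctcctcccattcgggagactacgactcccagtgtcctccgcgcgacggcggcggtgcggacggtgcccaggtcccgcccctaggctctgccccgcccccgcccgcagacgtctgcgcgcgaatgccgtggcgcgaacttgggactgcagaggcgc
POLA2: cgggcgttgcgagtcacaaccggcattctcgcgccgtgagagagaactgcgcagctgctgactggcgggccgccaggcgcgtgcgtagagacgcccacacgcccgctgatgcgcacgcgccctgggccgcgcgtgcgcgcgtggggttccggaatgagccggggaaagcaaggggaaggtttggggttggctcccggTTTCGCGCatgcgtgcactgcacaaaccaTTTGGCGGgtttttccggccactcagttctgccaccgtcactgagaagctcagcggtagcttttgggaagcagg

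The E2F-type letters searched were TTTGGCGC, TTTCGCGC, TTTCCCGC and TTTGGCGG on both strands. They were found in 6 of the 12 windows, and in 6 of the 9 genes with a window, against 3.35% of the 35116 windows of all genes and 4.9% of the 15986 windows of the genes tested. The first base of the match lay at -137 from the start site in POLA1, -114 in LIG1, -59 in PCNA, -18 in POLE and -5 in POLE2. POLA2 held 2 matches, at -53 and -24. The windows of PRIM1, PRIM2 and POLD1, which are not shown, held none. In LIG1 and PCNA the match overlapped a match of GGGCGG, the GC box. None of the 12 windows held TTTGAA (CHR-type), which was in 15.2% of all windows and 10.5% of those of tested genes. CCAAT, the CAAT box, was in 5 of the 12 windows, against 34.6% of all windows and 34.9% of those of tested genes. GGGCGG was in 7 of the 12, against 45% of all windows but 64.8% of those of tested genes. CCGGAAGT (ETS-type) was in the POLA1 window alone, at -65, against 4.14% of all windows and 7.15% of those of tested genes. These matches describe letters in a window and do not show binding.

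**Figure D1:**
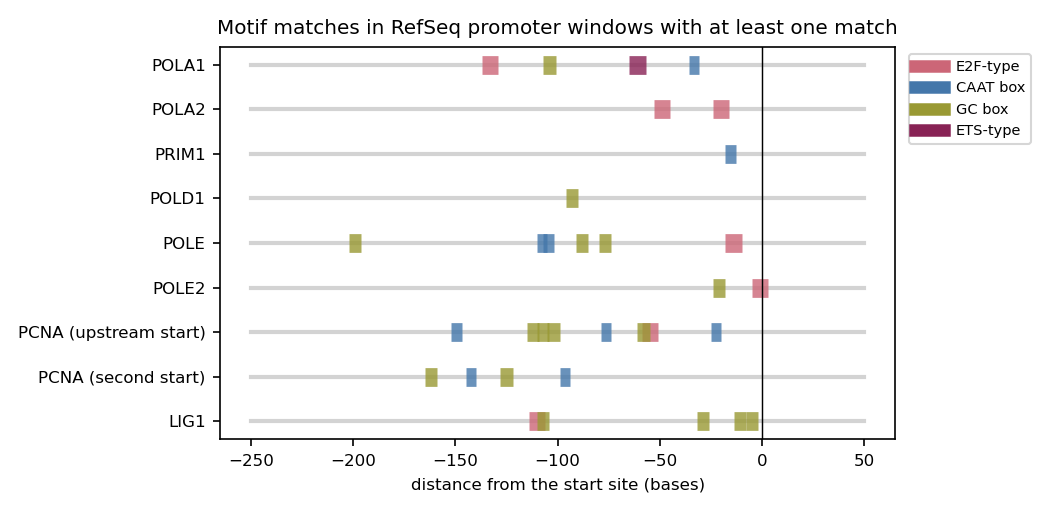
Positions of motif matches in the RefSeq promoter windows of the members that hold at least 1 match; the x axis is the distance in bases from the start site, each grey line is a window of 300 bases, and colours mark the E2F-type, CAAT box, GC box and ETS-type letters. E2F-type matches lie in 6 windows, between -137 and -5 bases, with 2 of them in POLA2.

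All 10 genes had lower mean levels in drug-treated cells, and 5 of them, POLA1, POLD3, POLE, PCNA and LIG1, fell at an adjusted p under 0.05 (limma, Benjamini-Hochberg adjusted over 13930 genes). None rose. At that threshold 3.41% of all genes tested changed in either direction and 2.15% were lower. In 8 of the 10 genes every drug-treated library lay below every DMSO library, which held for 15.1% of all genes tested. The median log2 fold change was -0.29 over the 10 genes, with a range of -0.41 to -0.07, against -0.0075 over all genes tested, of which 52% were lower. The 5 genes that fell lost between 15.5% and 24% of their DMSO mean.

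When any 1 drug-treated library was left out, no member passed the threshold, and the adjusted p from limma was then 0.0632 to 0.0912 for PCNA, 0.072 to 0.108 for POLD3 and 0.0914 to 0.0994 for POLA1, while 8 members had an unadjusted p under 0.05 in each of these fits. Without DMSO replicate 1, the library that stood apart, 7 members were called lower, POLD1 (adjusted p = 6.7e-06) and POLE2 (adjusted p = 0.0144) in addition, against 8.46% of all genes called lower in that fit. Without DMSO replicate 2, where 412 of 13930 genes were called lower, 4 members were called, PRIM1 (adjusted p = 0.047) with POLA1, POLD3 and PCNA. Without DMSO replicate 3, where 142 of 13930 genes were called lower, only POLA1, POLD3 and PCNA were called. POLE and LIG1 thus lost their calls in both of these limma fits.

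**Figure D2:**
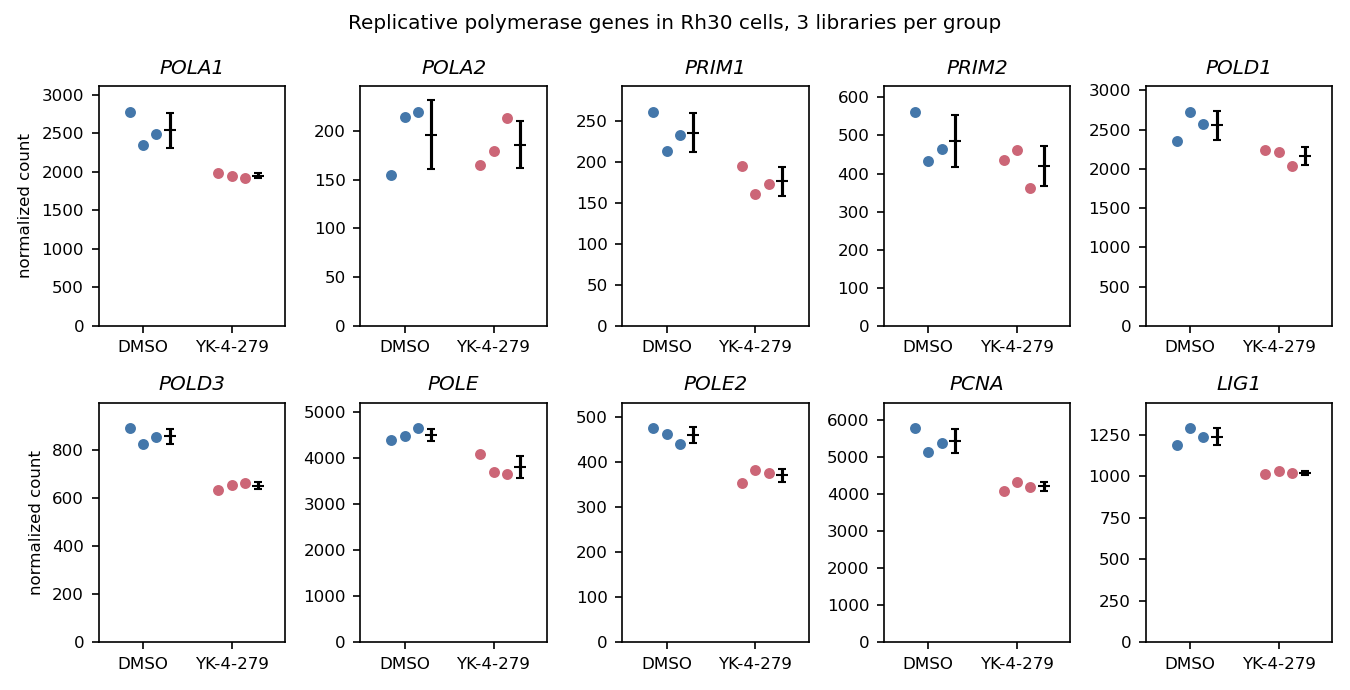
Normalized counts of the 10 genes in each library (points, 3 DMSO in blue and 3 YK-4-279 in red, each y axis from 0), with the mean and SD as a bar beside them. Drug-treated points lie below all DMSO points in 8 panels, and the groups overlap for POLA2 and PRIM2.

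Polymerase alpha and primase are made of 4 subunits, and the catalytic subunit POLA1 (chrX:24693873-24996986, 37 exons) fell while its partners did not pass the test. POLA1 had 2779, 2344 and 2486 normalized counts in DMSO replicates 1 to 3 and 1981, 1939 and 1924 in the drug-treated replicates. The groups did not overlap, and the drug-treated libraries lay close together. The mean went from 2536 ± 222 to 1948 ± 29.7 (SD over 3 libraries in each group), for a log2 fold change of -0.38 (SE 0.07, adjusted p = 0.0111, limma). PRIM1 (chr12:56730438-56752374), the primase subunit that makes the RNA, had 261, 213 and 233 normalized counts in DMSO and 195, 161 and 173 with the drug. Its log2 fold change of -0.41 was the lowest of the 10, but with SE 0.12 its adjusted p from limma was 0.0761. At 148 to 279 reads per library, PRIM1 was among the thinly covered members.

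PRIM2 (chr6:57314805-57646850), the large primase subunit, had 562, 432 and 464 normalized counts in DMSO and 434, 462 and 361 with the drug, so that the groups overlapped. The log2 fold change of PRIM2 was -0.21 (95% confidence interval -0.46 to 0.04), and -0.10 without DMSO replicate 1 or -0.11 without drug-treated replicate 3. POLA2 (chr11:65261913-65305959), the accessory B subunit of the polymerase, had 155, 214 and 220 normalized counts in DMSO and 165, 179 and 213 with the drug. Its lowest value of all was that of DMSO replicate 1, and its log2 fold change, at -0.07, was the smallest (95% confidence interval -0.38 to 0.25, adjusted p = 0.845, limma). That change was -0.23 without DMSO replicate 1 and 0.02 without DMSO replicate 3. By GENCODE 44, 55.8% of the exonic bases of POLA2 and 28.9% of those of PRIM1 are shared with other gene models on the same strand, so these counts are uncertain. A gene on the opposite strand covers a further 8.64% of PRIM1.

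For polymerase delta, POLD3 (chr11:74493851-74669117), the subunit that ties the enzyme to PCNA, fell. Its normalized counts were 890, 825 and 853 in DMSO and 634, 654 and 664 with the drug, with a wide gap between the groups. The mean went from 856 ± 32.5 to 651 ± 15.4 (SD over 3 libraries in each group), for a log2 fold change of -0.39 (SE 0.07, adjusted p = 0.0109, limma). POLD1 (chr19:50384204-50418018), the catalytic and proofreading subunit, had 2359, 2728 and 2577 normalized counts in DMSO and 2242, 2212 and 2031 with the drug. The groups did not overlap, but DMSO replicate 1 lay close to the drug-treated libraries, and the log2 fold change of -0.24 (SE 0.07) had an adjusted p of 0.0769 (limma). Another gene model shares 12.4% of the exonic bases of POLD1 on the same strand.

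For polymerase epsilon, the catalytic subunit POLE (chr12:132623753-132687376, 49 exons) fell by a small amount. Its normalized counts were 4394, 4476 and 4646 in DMSO and 4078, 3690 and 3648 with the drug, and drug-treated replicate 1 lay nearest to the DMSO libraries. The mean went from 4505 ± 129 to 3805 ± 237 (SD over 3 libraries in each group), for a log2 fold change of -0.25 (SE 0.06, adjusted p = 0.0441, limma). With edgeR on the recovered reads, where 1.86% of all genes were called lower, the adjusted p of POLE was 0.0633. POLE2 (chr14:49643555-49688422), the accessory subunit of the enzyme, had 475, 463 and 441 normalized counts in DMSO and 354, 383 and 376 with the drug. These groups did not overlap either, and the log2 fold change of -0.31 (SE 0.08) had an adjusted p of 0.0625 (limma).

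PCNA (chr20:5114953-5126626), the clamp, had the lowest adjusted p of the members. Its normalized counts were 5787, 5138 and 5395 in DMSO and 4101, 4337 and 4209 with the drug, without overlap. The mean went from 5440 ± 327 to 4216 ± 118 (SD over 3 libraries in each group), for a log2 fold change of -0.37 (SE 0.06, adjusted p = 0.00741, limma). The annotation holds 3 pseudogenes of PCNA. Any reads shared with them would make the count uncertain, but such sharing was not measured. LIG1 (chr19:48115445-48170603), which joins the fragments of the lagging strand, had 1189, 1291 and 1241 normalized counts in DMSO and 1013, 1033 and 1019 with the drug. The 3 drug-treated values lay close together, below all DMSO values. A gene on the opposite strand covers 5.18% of the exonic bases of LIG1. The mean went from 1240 ± 51 to 1022 ± 10.6 (SD over 3 libraries in each group), for a log2 fold change of -0.28 (SE 0.07, adjusted p = 0.036, limma).

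**Figure D3:**
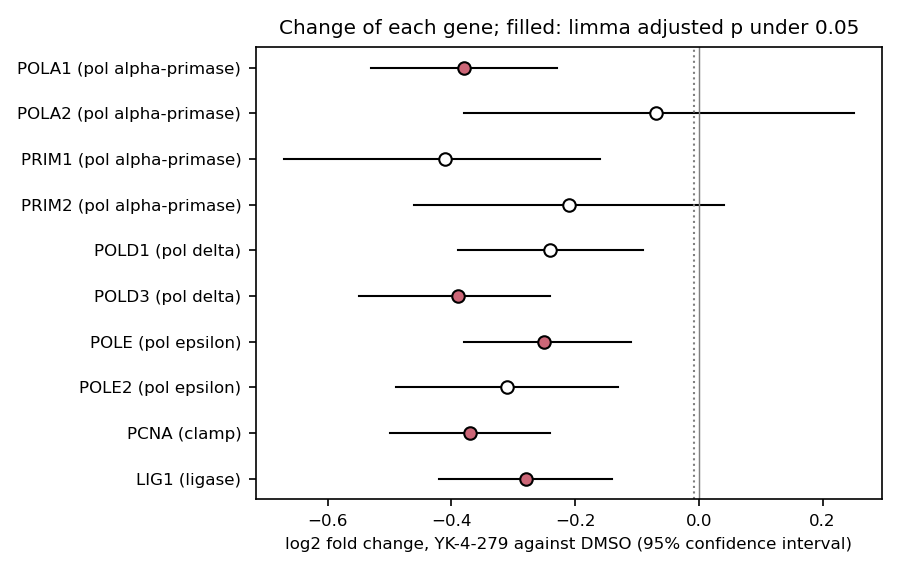
Log2 fold change of each gene (YK-4-279 against DMSO, x axis) with its 95% confidence interval from limma; filled points have an adjusted p under 0.05 and the dotted line is the median of all genes tested. All 10 points lie left of 0, and the intervals of POLA2 and PRIM2 cross it.

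POLA1, POLD3 and PCNA were each called in 13 of 17 alternative settings, the replicate block among them, LIG1 in 8, POLE in 6, POLD1 in 3, POLE2 in 2, PRIM1 in 1, and POLA2 and PRIM2 in none. With eBayes without trend 0 of the 10 were called (8 had an unadjusted p under 0.05), and the adjusted p from limma was 0.105 for PCNA, 0.0822 for POLD3 and 0.12 for POLA1. With quantile scaling, where 145 of 13930 genes were called lower, 3 members were called, and POLE and LIG1 were not among them. With DESeq2 on the recovered reads 6 members were called lower, POLD1 (adjusted p = 0.0461) in addition, where 3.27% of all genes were. With the trend on GC content and transcript length removed from each library 7 were, against 7.98% of all genes. With TMM scaling the adjusted p from limma was 0.066 for POLE and 0.0503 for LIG1.

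**Figure D4:**
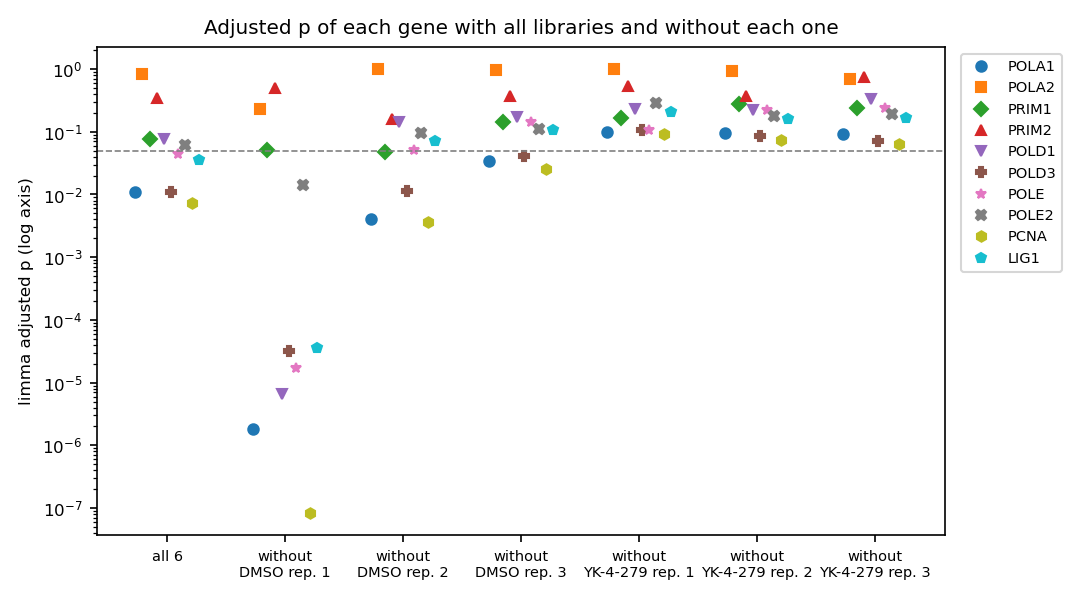
Adjusted p from limma (log axis) of each gene with all 6 libraries and without each library in turn; the dashed line marks 0.05. Points of 7 genes lie below the line without DMSO replicate 1, and none does when any 1 drug-treated library is left out.

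Per kilobase of transcript in DMSO, PCNA was the most abundant of the 10 at 4263 normalized counts per kilobase. It was followed by POLD1 at 744, POLE at 576, POLA1 at 462, LIG1 at 397, POLE2 at 272, POLD3 at 226, PRIM2 at 211, PRIM1 at 166 and POLA2 at 55.4. Among these 10 genes, POLA1, POLD1 and POLE stood above POLA2, POLD3 and POLE2, the other listed subunits of the same polymerases. Among neighbours in this order, the DMSO libraries overlapped for POLD3 and PRIM2 alone. The levels of POLA2 and PRIM1 are uncertain, as same-strand gene models share 55.8% and 28.9% of their exonic bases. The same holds for ratios that use them.

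The balance between subunits was compared in 8 ratios of normalized counts, and the groups overlapped in all 8. The exact two-sided permutation test cannot go below p = 0.1 with 3 against 3 libraries, and its p ran from 0.2 to 0.9, and from 0.8 to 0.9 when adjusted over the 8 ratios. The ratio of POLD1 to POLD3 was 2.65, 3.31 and 3.02 in DMSO and 3.54, 3.38 and 3.06 with the drug. The ratio of POLA1 to POLA2 was 17.9 in DMSO replicate 1, against 11 and 11.3 in the other DMSO libraries and 12, 10.8 and 9.03 with the drug. The difference in the latter ratio was -0.31 on the log2 scale (SE 0.26), and -0.08 without DMSO replicate 1, with a range of -0.43 to -0.08 when 1 library was left out.

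The other subunits of polymerases delta and epsilon, POLD2, POLD4, POLE3 and POLE4, were not called in any of the 4 cases, and their median log2 fold change was -0.04. POLD2, the subunit that holds polymerase delta together, had 3077, 3510 and 3416 normalized counts in DMSO and 3093, 3211 and 3079 with the drug (log2 fold change -0.09, adjusted p = 0.47, limma). It was called lower in 2 other limma fits, without DMSO replicate 1 (-0.15, adjusted p = 0.0133) and with GC and length trends removed (-0.16, adjusted p = 0.0113). POLD4, the smallest subunit of polymerase delta and named here after its values were seen, went the other way, with 42.9, 53 and 56.8 normalized counts in DMSO and 73.7, 80.4 and 62 with the drug. Every drug-treated library of POLD4 lay above every DMSO library, and its log2 fold change of 0.50 had an adjusted p of 0.168 (limma). The next comparisons were chosen after the values were seen. The ratio of POLD3 to POLD2 was 0.289, 0.235 and 0.25 in DMSO and 0.205, 0.204 and 0.216 with the drug, a difference of -0.31 on the log2 scale (SE 0.09). The ratio of POLD1 to POLD2 differed by -0.15 (SE 0.04) and that of POLE2 to POLE4 by -0.31 (SE 0.08), also without overlap, while the groups overlapped for POLE to POLE3 (-0.17, SE 0.10, with -0.26 without drug-treated replicate 1 and -0.10 without drug-treated replicate 2). For the 3 ratios without overlap the exact permutation p was 0.1, the smallest possible, and 0.133 when adjusted over the 4 ratios.

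In 6 lists, of the wider replication machinery and of other DNA polymerases and ligases, 17 of 59 genes tested fell and none rose. Of all genes tested 2.15% were called lower, and the median log2 fold change of the 59 was -0.19. The number called among the 59 was 28 without DMSO replicate 1, a fit that called 8.46% of all genes lower. It was 8 without DMSO replicate 3, where 142 of 13930 genes were called lower. It was 0 without drug-treated replicate 1 or 2, where 4 and 7 genes were called lower, and 2 without drug-treated replicate 3, where 18 were. In 35 of the 59 every drug-treated library lay below every DMSO library, against 15.1% of all genes tested, and in 4 every one lay above. In limma with all libraries, the fork helicase and its protection factors had the most calls, with 7 of 11 lower and a median of -0.31. Without DMSO replicate 1, or with GC and length trends removed, this list had 8 calls and the proteins that bind or act on PCNA had 9. CLSPN, which relays checkpoint signals at the fork, went from 3111 ± 239 to 2464 ± 17.9 normalized counts (SD, n = 3 each; log2 fold change -0.33). DONSON, GINS1 and CDC45, factors that assemble or form the active helicase, fell by 0.50, 0.36 and 0.35 on the log2 scale. All 4 had an adjusted p under 0.05 in limma.

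Among the clamp loaders and unloader, which place PCNA on DNA and take it off, 3 of 9 fell, with a median of -0.22. These were DSCC1, part of an alternative loader (-0.46, adjusted p = 0.0117, limma), and the loader subunits RFC3 (-0.30) and RFC2 (-0.29). RFC1, the large loader subunit, had a log2 fold change of -0.18 and an adjusted p of 0.21 (limma). Of 12 proteins that bind or act on PCNA, 5 fell and none rose. They included PCLAF (-0.46), a PCNA-bound factor, and UHRF1 (-0.33), which recruits maintenance DNA methylation. UBE2T (-0.45) was also counted there, but is known as the ubiquitin-conjugating enzyme of the Fanconi anaemia pathway rather than for acting on PCNA, and without it 4 of 11 fell.

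Of 8 genes for Okazaki fragment processing and single-strand DNA binding, 1 fell, the nuclease and helicase DNA2 (-0.51 on the log2 scale), and all 8 had lower means. RPA1, the large subunit of the single-strand binding complex, had a log2 fold change of -0.20 and an adjusted p of 0.121 (limma). The polymerases and ligases of repair, lesion bypass and mitochondria gave 1 call among 15 genes tested, POLQ of end joining (-0.28), and 8 had lower and 7 higher means, with a median of -0.03. LIG3 had the highest mean count of them over all libraries, without correction for transcript length. It was at 2337 ± 109 normalized counts in DMSO and 2294 ± 17 in drug-treated cells (SD over 3 libraries).

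**Figure D5:**
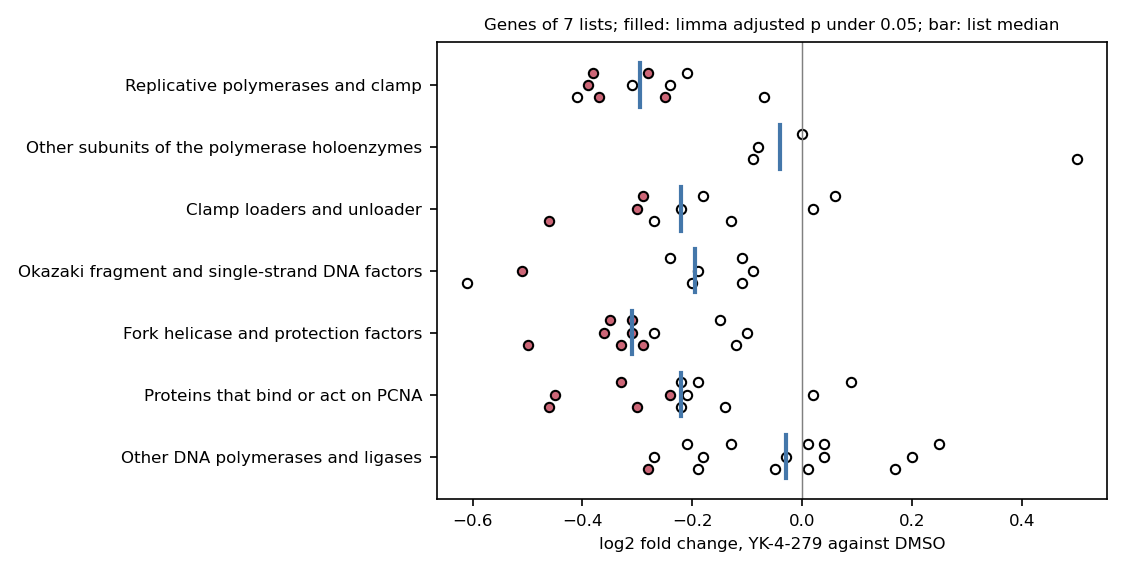
Log2 fold changes (x axis, YK-4-279 against DMSO) of the members and of the genes in 6 lists of partner proteins; each point is a gene, filled points have an adjusted p under 0.05 in limma, and the bar is the list's median. Medians run from -0.31 for the fork helicase and protection factors to -0.03 for the other polymerases and ligases.

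The 10 genes were also followed library by library. The median deviation of the 10 genes from their own mean was 0.23, 0.13 and 0.17 in DMSO replicates 1 to 3 and -0.16, -0.13 and -0.18 in the drug-treated replicates, on the log2 scale. DMSO replicate 1 was the highest library for 6 of the 10. Over the 6 libraries, the correlation of each gene with the mean of the others was highest for POLD3 (0.98) and PCNA (0.97), was 0.54 for PRIM2 and was -0.03 for POLA2. With the group means taken out, that correlation was above 0 for 3 members, POLA1 (0.50), PCNA (0.46) and POLD3 (0.26), and below 0 for 7, down to -0.85 for LIG1 and -0.95 for POLA2. The non-members most like the mean of the members were CDCA7 (r = 0.9965), CIT (0.9962), NUP62 (0.9953), ADAMTS12 (0.9949) and RFLNB (0.9946), among 10689 genes with a mean of at least 100. Without the group means, r with the mean of the members was between 0.56 and 0.72 for these 5. All these points share the same libraries and the same contrast, and the values are given as a description.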

How the data were processed

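mRNA of Rh30 cells was sequenced in 3 YK-4-279 and 3 DMSO libraries. Per the labels and methods, the authors aligned reads to hg38 with STAR 2.7.9a, counted them per gene and used DESeq2 1.44.0. The annotation and the strand setting of the counting are not given in the sources used here. The values deposited by the authors are a normalized signal per gene, namely counts divided by a factor of the library. When this factor was taken out, 100% of values came out as whole reads (tolerance 0.01).

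The test of drug against DMSO used limma 3.58.1 under R 4.3.3 (lmFit, eBayes with trend, two-sided) on log2(normalized count + 1), which understates changes of low genes, over genes with a mean of at least 10, with Benjamini-Hochberg adjustment over all of them. The table had 35269 rows, of which 1 without a gene name was left out. The fit was repeated with each library left out, with the replicate number as a block, with quantile or TMM scaling, with no trend in eBayes, with GC and length trends removed, with other filters or pseudocounts, and as a count test of the recovered reads in DESeq2 1.42.0 and edgeR 4.0.16. Code was tested on simulated data. At a simulated log2 change of 0.3, limma called 19 of 198 changed genes in the right direction, and 156 of 198 at 0.5. Genes that were not called, with changes of about this size, therefore cannot be taken as unchanged. Positions and lengths are from GENCODE 44, on hg38, and promoter sequences from RefSeq.

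The members and lists were chosen with earlier results of these data known. The genes named are all members, in each list the gene with the highest mean and up to 3 called genes with the largest changes, and the 5 genes most like the members. POLD4, POLE3 and POLE4 fall outside this rule and were named after their values were seen, as were the ratios that use them or POLD2.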

Additional observations from a re-analysis of the deposited data

How the results depend on the processing

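The median log2 fold change of the 10 members stayed between -0.32 and -0.27 under every alternative. Counts of calls moved more. Against 475 genes called by limma with all libraries (176 higher, 299 lower), TMM scaling gave 391 (172 higher, 219 lower) and quantile scaling 277 (132 higher, 145 lower). The number was 33 for eBayes without trend (30 higher, 3 lower) and 180 for the replicate block (79 higher, 101 lower). Removal of GC and length trends gave 1671 (578 higher, 1093 lower). Leaving out 1 library gave 19 to 1823, with 1823 without DMSO replicate 1, 676 without DMSO replicate 2, 242 without DMSO replicate 3, and 19, 23 and 46 without drug-treated replicates 1, 2 and 3. Of the members, 5 were called with all libraries, 3 with TMM scaling, 3 with quantile scaling, 0 without trend, 3 with the replicate block, and 0 to 7 when 1 library was left out (7, 4 and 3 without DMSO replicates 1, 2 and 3). Of the genes in the partner lists, 17 were called with all libraries, 9 with quantile scaling, 0 without trend, 7 with the replicate block, 30 with GC and length trends removed, and 0 to 28 when 1 library was left out. The cause of these shifts was not tested. POLA2 ran from -0.23 to 0.02 on the log2 scale when 1 library was left out, and the log2 differences of the ratios POLA1 to PRIM1, POLE to POLE2 and POLE to POLD1 ran from -0.02 to 0.10, -0.02 to 0.12 and -0.06 to 0.03. Of the ratios to POLD2, POLE3 and POLE4, whose leave-out values were computed after seeing the data, all stayed below 0. Deviations of same-numbered libraries correlated at -0.0985, -0.0269 and -0.0267, so no signal shared by replicate number was seen. Whether same-numbered samples were prepared together is not stated, and these values cannot settle it. Counts of calls under the replicate block are given only here, although it is 1 of the 17 settings over which each member's calls were tallied. At 123 to 263 reads per library, POLA2 was the least covered member.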
